A study of Mus musculus with 33 samples.

Results

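The genes described here are 9 mouse genes for chaperones and proteases that work inside the mitochondrion: Hspd1, Hspe1, Hspa9, Trap1, Lonp1, Clpb, Clpp, Dnaja3 and Grpel1. They were chosen by name, out of 21631 protein-coding genes in the gene table, and every deposited peak whose summit lay within the gene or up to 10 kb outside it was taken as the gene's own. The series profiled mouse embryonic fibroblasts of a 129Sv.BALB/c background before heat shock and after 12 or 60 min of it, and 15 of its 33 samples, those with peak lists from chromatin immunoprecipitation and sequencing (ChIP-seq), were used. Wild-type and HSF1-/- fibroblasts were each profiled at the 3 times with 2 antibodies, called CS (Cell Signaling #4356) and MM (a gift of the Morimoto laboratory) here. The file headers name HSF1 for these lists. Wild-type fibroblasts were also profiled with an SRF antibody (D71A9, Cell Signaling #5147). The other 18 samples, nascent RNA and control libraries, were not analysed here. HSF1-/- fibroblasts lack the heat shock factor HSF1, so their peaks give what the same antibodies yielded without it. Their lists were called without a control, unlike the wild-type ones, so they are not a background made in the same way. A peak list holds no marker gene expression, so neither the cell type nor the loss of HSF1 could be checked from these files.

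HSF1 is a transcription factor that on heat stress forms trimers and binds heat shock elements, runs of short GAA units in alternating orientation, at genes for chaperones. SRF is a transcription factor of growth signalling and the cytoskeleton. In the mitochondrial matrix, Hspa9 (mortalin) takes hold of proteins as they are imported, with the J-domain protein Dnaja3 and the nucleotide exchange factor Grpel1 as its helpers, and the barrel of Hspd1 (HSP60) closed by its lid Hspe1 (HSP10) then folds them. Trap1 is the mitochondrial HSP90, Clpb a disaggregase, and Lonp1 and Clpp are proteases that degrade damaged proteins. Hspd1 and Hspe1 lie head to head and are transcribed away from a common start region.

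Of the 9 genes, 8 had a promoter in the RefSeq table (GRCm38.p6), which spans 250 bases before to 50 after each annotated start. Hspa9 had no entry. The sequence between the Hspd1 and Hspe1 starts is shown because the HSF1 peaks centred on it. That of Trap1 is shown because an MM peak at 12 min centred on it. For Grpel1 an MM peak at 12 min covered the stretch shown, with its summit just past it at chr5:36465182. Timm13, an import chaperone, is shown as another mitochondrial gene whose start carried an HSF1 region. Capitals mark matches to alternating units of GAA and TTC spaced by any 2 bases, with at least 2 units (GAANNTTC or TTCNNGAA). These motifs read the same on both strands, and longer runs contain shorter ones. The Hspe1 line is chr1:55087998-55088137 on the plus strand, Timm13 is chr10:80900980-80901119 on the minus strand, Trap1 is chr16:4077841-4077960 on the minus strand and Grpel1 is chr5:36465035-36465174 on the plus strand, each 5′ to 3′ towards its gene.
Hspe1: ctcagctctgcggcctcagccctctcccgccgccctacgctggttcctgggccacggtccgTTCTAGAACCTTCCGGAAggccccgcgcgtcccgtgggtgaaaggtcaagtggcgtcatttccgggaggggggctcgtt
Timm13: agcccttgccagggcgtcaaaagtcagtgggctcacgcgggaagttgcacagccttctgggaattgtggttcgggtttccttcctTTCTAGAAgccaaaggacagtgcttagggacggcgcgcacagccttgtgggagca
Trap1: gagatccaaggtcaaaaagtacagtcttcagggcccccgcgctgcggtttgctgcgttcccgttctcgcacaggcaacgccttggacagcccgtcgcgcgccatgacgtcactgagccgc
Grpel1: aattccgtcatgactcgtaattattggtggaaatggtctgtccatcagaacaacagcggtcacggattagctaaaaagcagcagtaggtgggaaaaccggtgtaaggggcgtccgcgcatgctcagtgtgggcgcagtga

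The stretch shared by Hspd1 and Hspe1 holds a run of 4 units without interruption, at chr1:55088059-55088076. This 18 bp run lies 72 to 89 bp before the Hspe1 start and 127 to 144 bp before the nearer of the annotated Hspd1 starts. The farther Hspd1 start, chr1:55088243, lies inside Hspe1, and the 2 genes overlap there by 96 bases. From that start the run lies inside Hspd1. Runs of 4 units were rare: they occurred in 8 of 32619 promoters (0.0245%), against 198 (0.607%) with at least 3 units and 4938 (15.1%) with at least 2. In these counts the run shared by Hspd1 and Hspe1 counts for each gene. Among the other genes with an entry, Clpp had 1 match of 2 units, 33 to 40 bp after its start, and Trap1, Lonp1, Clpb, Dnaja3 and Grpel1 had none in the window, which says only that these letters were not there. A match describes the sequence and was not taken as a binding site.

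The tags in a peak are the authors' count of sequenced fragments, with at most 1 kept per position. With M as the SI prefix mega, a wild-type list drew on 14.0 to 26.3 M for CS and MM, an HSF1-/- list on 5.18 to 15.6 M and an SRF list on 0.751 to 1.55 M. Wild-type CS and MM lists were called against IgG from files named as 2 merged replicates, while HSF1-/- lists were called with no control. Each genotype, time and antibody had 1 list, so there was no replicate error and no test between conditions. Tags, folds and ranks below describe peaks within their own list, since depth and calling differed between lists. A wild-type region is called shared where a CS and an MM peak of the same time overlapped by at least 1 bp.

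Shared HSF1 regions were found at Hspd1 and Hspe1 before heat shock and at Hspd1, Hspe1 and Hspa9 at both times of heat shock, and at no other gene of the 9. That made 2 of 9 genes before heat shock, against 0.532% of all protein-coding genes. It made 3 of 9 at 12 min, against 5.33%, and 3 of 9 at 60 min, against 11.2%. Because Hspd1 and Hspe1 stand on the same region, the 3 genes amount to 2 regions. Both genes were among the 0.527% of protein-coding genes with a shared region at all 3 times. In HSF1-/- cells the number of shared regions was 0 of 9 at each time, against 2.37%, 2.01% and 2.55% of all genes, so a count of 0 among 9 genes is near that background. SRF peaks were likewise found at 0 of 9 genes at each time, against 0.194%, 0.254% and 0.0878%, and over the 3 SRF lists together at 0 of 9, against 0.458%. All of the shared wild-type regions at the 9 genes had their summit within 1 kb of a gene end. By that narrower count 2, 3 and 3 of 9 genes stand against 0.194%, 1.53% and 2.58% of all genes before heat shock and at the 2 later times.

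**Figure D1:**
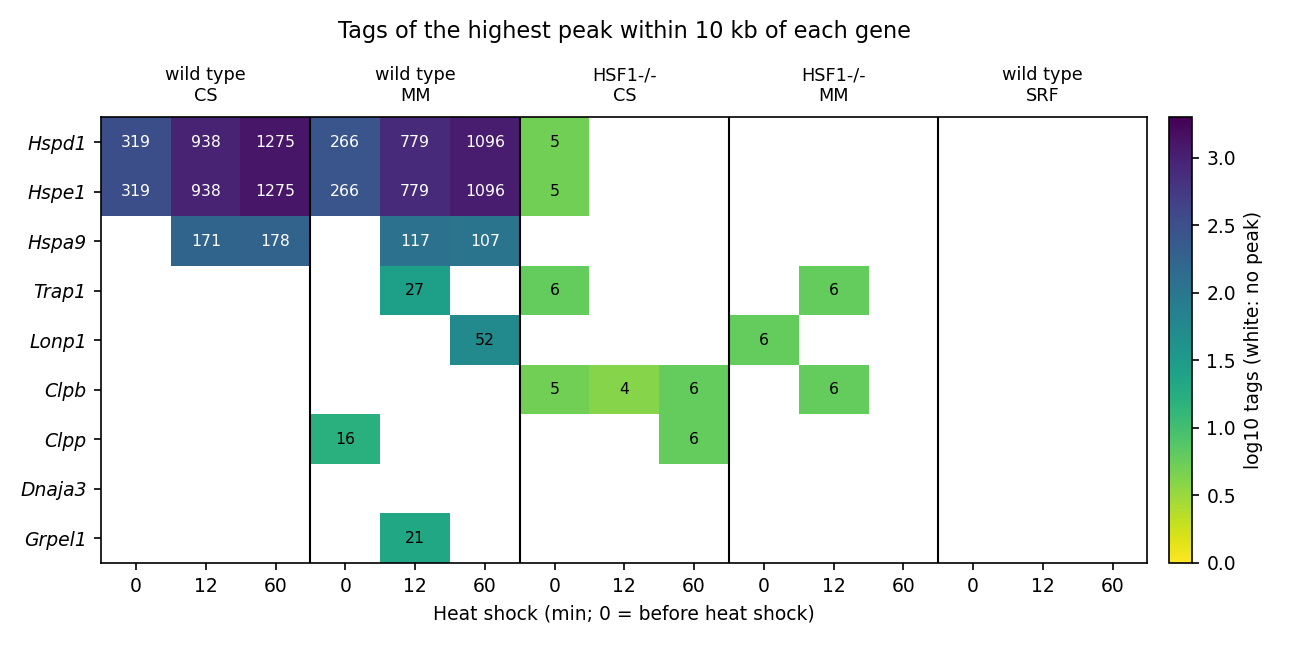
Tags of the highest peak (number in each cell) within 10 kb of each of the 9 genes (rows) in each of the 15 lists (columns); empty cells hold no peak. Hspd1 and Hspe1 carried 266 to 1275 tags in all 6 wild-type CS and MM lists, Hspa9 carried 107 to 178 tags in the 4 lists of heat-shocked wild-type cells, and HSF1-/- peaks held 4 to 6 tags.

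Counted by single antibodies, MM lists held peaks at more of the genes than CS lists did. CS peaks lay at 2 of 9 genes before heat shock (0.712% of all genes), 3 at 12 min (6.41%) and 3 at 60 min (13.9%). MM peaks lay at 3 of 9 (2.03%), 5 (7.23%) and 4 (15.4%), with Clpp before heat shock, Trap1 and Grpel1 at 12 min and Lonp1 at 60 min as the genes that CS lists did not hold. Over the 3 times, 7 of 9 genes had a peak in some wild-type CS or MM list, against 20.2% of all genes. In HSF1-/- lists 6 of 9 had one, against 48.0%. The 16 wild-type peaks held 16 to 1275 tags (median 144) over 252 to 3957 bp (median 1063 bp). The 9 HSF1-/- peaks held 4 to 6 tags (median 6) over 83 to 123 bp (median 103 bp). The caller's fragment length was 33 to 40 bp in the HSF1-/- lists, which had no control, against 40 to 161 bp in the wild-type CS and MM lists. The part of these differences in the sizes was not tested.

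The Hspd1 and Hspe1 region was among the 5 peaks with the most tags in each of the 6 wild-type lists. Before heat shock, the CS peak at chr1:55087695-55088401 held 319 tags over 707 bp and ranked 3 of 180 by tags. The MM peak at chr1:55087636-55088387 held 266 tags over 752 bp and ranked 2 of 449. These were 6.72 and 17.7 times the median peak of their lists. With CS only the peaks at the chaperone genes St13 and Hspa8 held more, with 439 and 338 tags, and with MM only St13, with 305 tags.

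At 12 min the CS peak at the chaperonin start region (chr1:55087027-55088817) held 938 tags over 1791 bp and ranked 5 of 1781. The MM peak (chr1:55087398-55088748) held 779 tags over 1351 bp and ranked 3 of 1927. In the CS list Hsp90ab1 (1452 tags), Hspa8 (1045), Hsph1 (986) and St13 (944), all genes for cytosolic chaperones or their partners, stood above it. In the MM list a peak of 2701 tags lying 28114 bp from Col19a1 and the Hsp90ab1 peak of 1076 tags did. The region's tags were 14.0 and 20.5 times the median peak of the CS and MM lists.

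At 60 min the CS peak (chr1:55086421-55090377) held 1275 tags over 3957 bp and ranked 4 of 4773, and the MM peak (chr1:55086743-55088847) held 1096 tags over 2105 bp and ranked 3 of 4614. Hsp90ab1 (1818 and 1429 tags) and the inducible HSP70 gene Hspa1b (1402 and 1166) stood above it in both lists. Hspd1 and Hspe1 thus carried more tags than 99.9% of the peaks in either list. The ratio to the median peak was 19.6 with CS and 30.4 with MM.

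Ranked by fold over IgG at the summit rather than by tags, the same peaks came lower. Their folds were 43.6, 55.3 and 61.9 with CS, ranking 22 of 180, 234 of 1781 and 840 of 4773. With MM they were 38.4, 54.3 and 64.5, ranking 10 of 449, 93 of 1927 and 398 of 4614. By tags per base of peak the region ranked 2, 3 and 43 with CS and 3, 1 and 5 with MM. The caller's false discovery rate (FDR) for the peak, which compares it with peaks called in the IgG library, was 100%, 25% and 0% with CS and 33.3%, 0% and 0% with MM, in order of time. The 60 min peaks therefore pass an FDR of 5% with both antibodies, and the peaks before heat shock pass it with neither, although they were among the highest of their lists by tags.

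**Figure D2:**
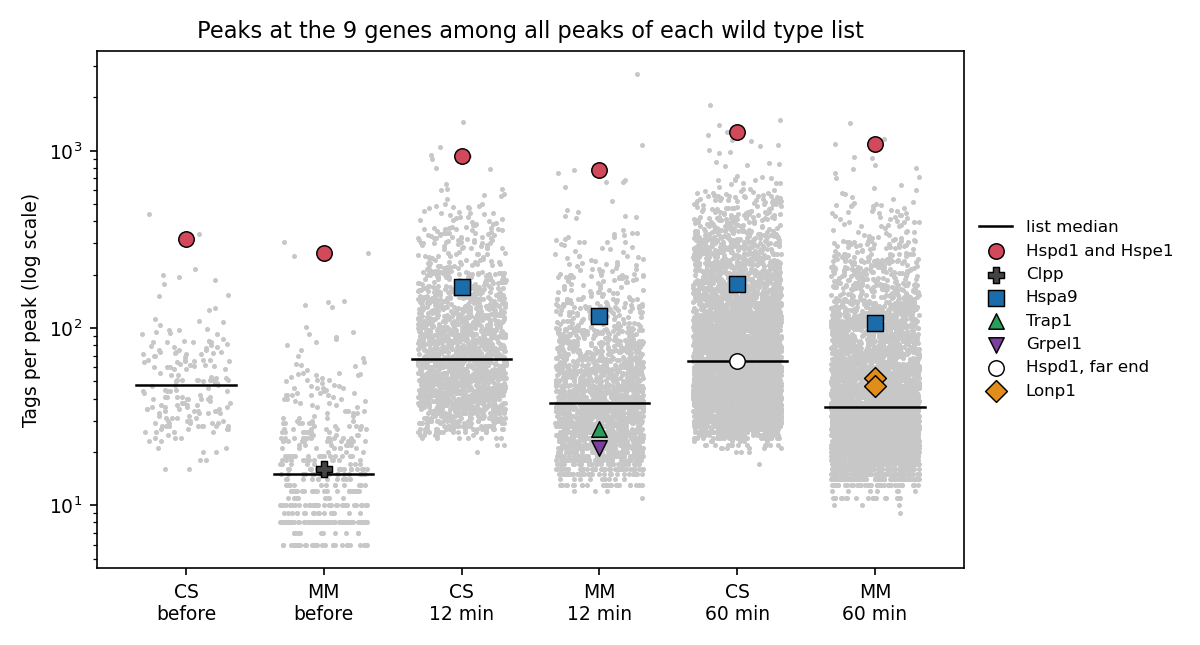
Tags of the peaks at the 9 genes (coloured points) set against the distribution of tags over all peaks of the same wild-type list, on a log scale. The Hspd1 and Hspe1 region stands near the top of each of the 6 lists, at up to 1275 tags, and the Hspa9 peaks stand between it and the median peak of their lists.

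Peak summits in the chaperonin region stayed within 30 bp of the run of 4 units shown above in all 6 wild-type lists. The CS summit lay on the run before heat shock and at 12 min (0 bp) and 8 bp from it at 60 min. The MM summit lay 19 bp, 19 bp and 30 bp from it. CS and MM summits of the same time were 19 bp, 19 bp and 22 bp apart, with the MM summit on the Hspd1 side each time. All 6 summits fell in the 215 bp between the Hspe1 start and the nearer Hspd1 start, 89 to 119 bp before the Hspe1 start.

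Around a nearly fixed summit, the shared region was 766 bp before heat shock, 1791 bp at 12 min and 3957 bp at 60 min. Already before heat shock the CS and MM peaks covered all annotated starts of both genes and ran into both genes. They did so again at 12 min and 60 min. The fragment length that the caller estimated moved the same way, from 40 to 45 bp in the wild-type lists before heat shock to 107 to 128 bp at 12 min and 114 to 161 bp at 60 min. Its part in the widths was not tested.

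**Figure D3:**
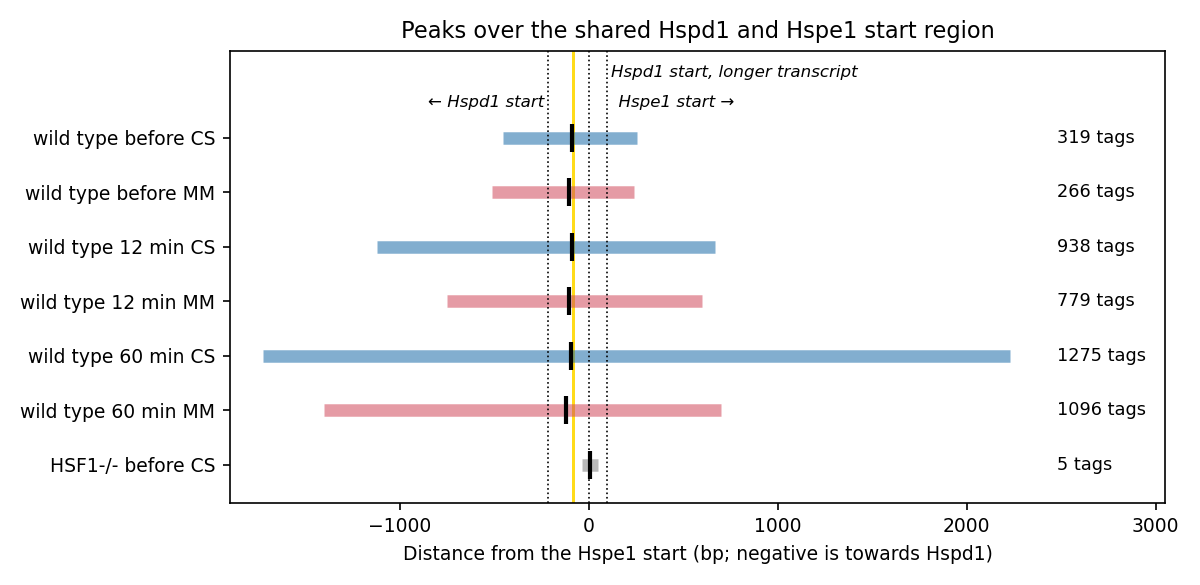
Extent (bars), summit (black ticks) and tags (right) of the peaks over the Hspd1 and Hspe1 start region, as distance in bp from the Hspe1 start; dotted lines are the annotated starts and the yellow band is the run of 4 heat shock units. The 6 wild-type summits lie 89 to 119 bp on the Hspd1 side of the Hspe1 start, and the HSF1-/- peak of 5 tags lies 8 bp on the other side of it.

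In HSF1-/- cells the chaperonin region held 1 peak, in the CS list before heat shock, of 5 tags over 85 bp (chr1:55088112-55088196). Its summit lay 8 bp inside Hspe1 and 80 bp from the run of 4 units, 97 bp from the wild-type CS summit of the same time. This peak overlapped all 6 wild-type peaks, and there was none there in the other 5 HSF1-/- lists. Wild-type cells had a second peak within 10 kb of Hspd1, past its far end, with CS at 60 min only. That peak (chr1:55076781-55077727) held 65 tags over 947 bp, and 49.3% of peaks in its list held fewer.

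Hspa9, the matrix HSP70, carried a shared region at its gene end at chr18:34954351 at both times of heat shock. It had no peak in any list before heat shock. Its strand was not available here, since it had no promoter entry, so whether that end is the start of the gene was not determined. The 12 min region was chr18:34953587-34954899, with 171 tags by CS (rank 231 of 1781) and 117 by MM (rank 180 of 1927). At 60 min it was chr18:34953725-34955275, with 178 tags by CS (rank 694 of 4773) and 107 by MM (rank 593 of 4614). All 4 summits lay within 28 bp of that gene end. The Hspa9 peaks held more tags than 85.3% to 90.6% of the peaks in their lists, and their FDR was 0.31% to 2.27%, so that each passed 5%. Their fold over IgG was 28.8 and 22.9 at 12 min and 22.1 and 17.98 at 60 min, with CS and MM.

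Set against Hspa9 in the same list, the Hspd1 and Hspe1 peak held 5.49 times as many tags with CS and 6.66 times with MM at 12 min. At 60 min it held 7.16 and 10.2 times as many. The Hspd1 and Hspe1 peak was also wider, at 1791 against 1044 bp with CS and 1351 against 1201 bp with MM at 12 min. At 60 min the widths were 3957 against 1551 bp and 2105 against 1128 bp. By fold the gap was smaller, at 55.3 against 28.8 and 54.3 against 22.9 at 12 min. At 60 min the folds were 61.9 against 22.05 with CS and 64.5 against 17.98 with MM. Hspa9 had no peak in any of the 6 HSF1-/- lists. The nearest SRF peak to Hspa9 lay 76.6 kb away at each of the 3 times, by the immediate-early gene Egr1.

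Trap1 and Grpel1 each had 1 wild-type peak, at the start of the gene, with MM at 12 min. The Trap1 peak (chr16:4077549-4078192) held 27 tags over 644 bp with a summit 71 bp before the start, a fold of 10.5 and an FDR of 6.07%. The Grpel1 peak (chr5:36464924-36465350) held 21 tags over 427 bp with a summit 3 bp before the start, a fold of 8.82 and an FDR of 57.0%. Both were low in the list: 29.6% of its peaks held fewer tags than Trap1 and 15.0% fewer than Grpel1. In that list the Hspd1 and Hspe1 peak held 28.9 times the tags of Trap1 and 37.1 times those of Grpel1. At Trap1 the HSF1-/- MM list of 12 min also held a peak, of 6 tags over 102 bp, with its summit 6 bp from the wild-type one. The wild-type and HSF1-/- libraries of these 2 peaks held 17.7 M and 15.6 M tags. Their fragment lengths were 107 and 36 bp, and only the wild-type list had a control, so the 2 tag counts are not on the same scale. A further HSF1-/- peak of 6 tags, with CS before heat shock, lay 13245 bp inside Trap1.

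At the proteases Lonp1 and Clpp, the wild-type peaks lay past the far end of the gene and nearer to an end of a neighbouring gene. Their summits were 4335 and 877 bp from the far end of Lonp1 and 753 bp from that of Clpp. Lonp1 had 2 MM peaks at 60 min, both past its far end: 1 of 52 tags (chr17:56609499-56610360, FDR 1.32%) lay 132 bp from an end of the ribosomal protein gene Rpl36, and 1 of 47 tags (chr17:56613091-56614172, FDR 19.2%) lay 826 bp from an end of Rpl36. The Hspd1 and Hspe1 peak of that list held 21.1 and 23.3 times as many. Clpp had 1 MM peak before heat shock (chr17:56997086-56997337), of 16 tags with an FDR of 100%, which lay 215 bp from an end of Alkbh7. The HSF1-/- CS list at 60 min held a peak of 6 tags that overlapped this position by 61 bp, with summits 185 bp apart. The Lonp1 HSF1-/- peak, of 6 tags with MM before heat shock, lay 9361 bp before its start and was the farthest peak inside the 10 kb limit.

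Clpb and Dnaja3 had no wild-type peak at any time with either antibody. Clpb, which at 131865 bp is the longest gene of the set, held 4 HSF1-/- peaks of 4 to 6 tags, in the CS lists at each of the 3 times and the MM list at 12 min. These lay 16369 to 54894 bp from the nearer gene end. Dnaja3 had no peak in any of the 15 lists. The nearest peak to it was 11766 bp away, with 5 tags in the HSF1-/- CS list before heat shock, and the nearest wild-type shared region at 60 min was 209 kb away. The other peaks just outside the 10 kb limit were 1 of 6 tags in the same HSF1-/- list, 10609 bp from Grpel1, and the CS peak of 65 tags already given for Hspd1, 10807 bp from Hspe1.

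HSF1-/- peaks were also counted list by list. With CS they were 4 of 9 before heat shock (21.6% of all genes), 1 at 12 min (15.9%) and 2 at 60 min (18.1%). With MM they were 1 (9.92%), 2 (16.8%) and 0 (11.4%). In the CS list before heat shock Hspd1 and Hspe1 share the same peak, so the 4 genes rest on 3 peaks. The counts of the other lists are near what the shares of all genes give for 9 genes.

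The shared regions were also counted at other genes of mitochondrial protein quality control. Among 8 cofactors of the matrix chaperones, the count was 0 at each time. Among 17 genes of protein import it was 0, 1 and 3, and among 6 regulators of mitochondrial stress responses 0, 1 and 2. Among 18 genes listed with the other proteases and processing peptidases it was 0, 2 and 2. That list was not of proteases only: 1 of the 2 genes at the earlier time of heat shock was the scaffold gene Phb. Together these 4 lists had a region at 0, 4 and 7 of 49 genes at the 3 times, which is 0%, 8.16% and 14.3%, set against 0.532%, 5.33% and 11.2% of all genes.

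Of these, the regions at gene starts were those of Timm9 and Timm13, small chaperones of the intermembrane space that escort proteins to the inner membrane, of Phb, a scaffold of the inner membrane, and of Cebpb, a transcription factor of stress responses. Timm9 held 86 CS and 49 MM tags at 12 min and 196 and 106 at 60 min, in a region (chr12:71136045-71137522 at 60 min) whose nearest gene end was that of its neighbour 2700049A03Rik. The Timm9 promoter holds a 3-unit element, TTCTAGAAATTTC, at chr12:71136865-71136877, which lay 207 bp from the 12 min summit and 42 bp from the 60 min summit. Timm13 held 90 CS and 86 MM tags at 60 min, with a summit 35 bp before its start and 23 bp from the element shown above. Phb held 51 and 32 tags at 12 min, 63 bp inside the gene. A 2-unit match in the Phb promoter lay 204 bp from the summit of that region. Promoters of Timm10, Tomm20, Tomm22, Parl and Atf5, also on these lists, held a 2-unit match too, and these genes had no shared region at any time. Of 3 Cebpb regions at 60 min, the one with its summit 107 bp after the start held 106 tags with each antibody. The regions counted for the protease genes Oma1 and Htra2, the import pore gene Tomm40 and the deacetylase gene Sirt3 lay 6300 to 25610 bp from an end of the gene. In HSF1-/- cells the 1 gene of these lists with a shared region was the peptidase gene Immp2l, at all 3 times, deep inside a long gene, with 27, 13 and 21 CS tags and 30, 42 and 24 MM tags.

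**Figure D4:**
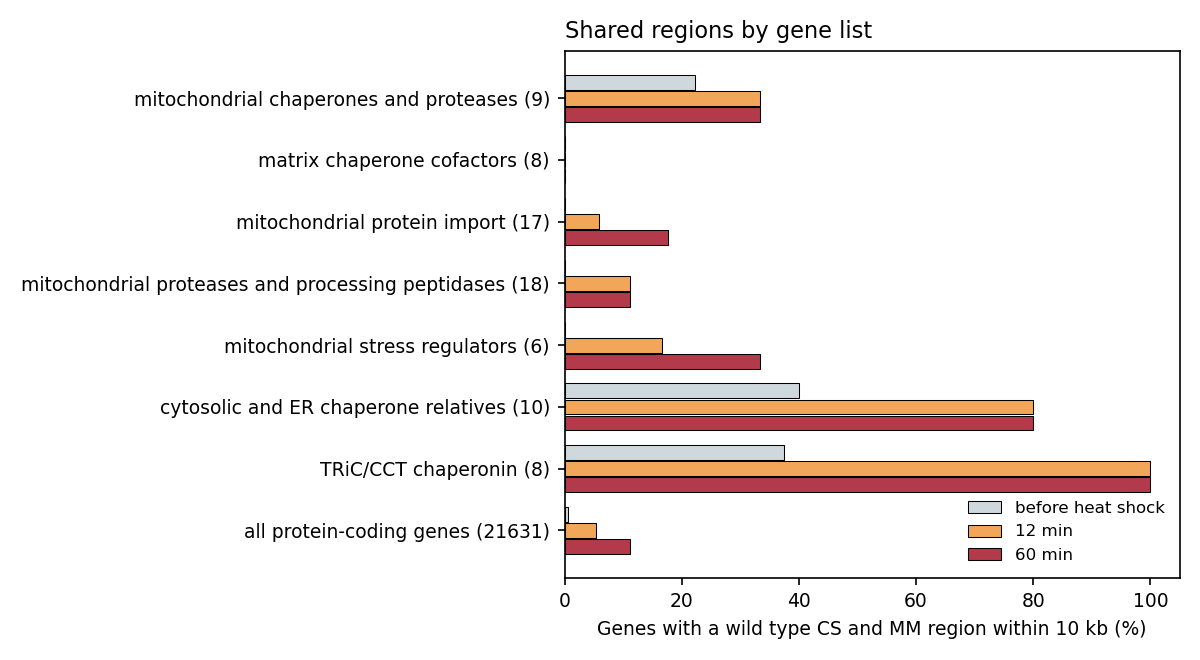
Share of genes with a wild-type HSF1 region shared by CS and MM at each time, for the 9 mitochondrial chaperones and proteases and the other gene lists, beside the share of all protein-coding genes. All 8 TRiC/CCT genes and 8 of 10 cytosolic and ER relatives had a region at 12 and 60 min, against 3 of the 9.

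The relatives of these chaperones outside the mitochondrion were counted the same way, and shared regions lay at 4, 8 and 8 of 10 genes at the 3 times in order. For the HSP70s, Hspa8 of the cytosol held 338, 1045 and 1156 CS tags at the 3 times, against none, 171 and 178 at Hspa9, while Hspa5 of the endoplasmic reticulum had no shared region. For the HSP90s, Hsp90aa1 held 87, 567 and 845 CS tags and Hsp90b1 of the endoplasmic reticulum 201 and 216 at 12 and 60 min, where Trap1 had no CS peak. For the J-domain proteins, Dnaja1 held 199, 902 and 980 CS tags, and Dnaja2, like Dnaja3, had no shared region. The TRiC/CCT chaperonin, the cytosolic counterpart of Hspd1, had shared regions at 3, 8 and 8 of its 8 genes.

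By the ranks of their tags over the 6 wild-type lists, the regions most like that of Hspd1 and Hspe1 were those of Hspa8, Hsph1, St13, Dnaja1 and Hsp90ab1. Likeness was the root mean square difference of the percentile ranks, taken over the 31 other regions at gene ends that were shared at all 3 times. It was 0.257 percentile points for Hspa8, 0.301 for Hsph1, 0.473 for St13 (with Xpnpep3), 0.592 for Dnaja1 (with Aptx) and 0.74 for Hsp90ab1. These are 6 lists of the same cells, and the values describe the lists only.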

How the data were processed

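Per the labels, reads were from ChIP-seq of mouse embryonic fibroblasts and the files use build mm10. The aligner was not given in the sources used here. The authors called CS and MM peaks with MACS 1.4.2 and SRF peaks with MACS 2.0.9, at a p-value cutoff of 1e-04, per the file headers. The deposited values are tag counts per peak, a score computed from the p-value on a log10 scale, the fold (ratio) over control, the FDR in percent and, for SRF, pileup signal and -log10 p and q values.

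Summits were set from the deposited start and offset and assigned to every RefSeq gene (GRCm38.p6) within 10 kb. Where a CS peak overlapped an MM peak by 1 bp (within 1 genotype and time), the pair made a shared region. Shares were counted over 21631 protein-coding genes. Assignment was tested on simulated peaks. Alternatives were single antibodies, FDR limits, windows, overlaps and ranks by fold or tags per base. Genes named by rule outside the 9 were those nearest to a peak in a window, those on the lists with a wild-type shared region, and the 5 most like Hspd1 and Hspe1. Others were named after their values were seen: genes at peaks ranked above Hspd1 and Hspe1, Egr1, Immp2l, Hspa5, Dnaja2 and the genes with a run of 4 units. Of the peaks ranked above, 1 is not reported here. The 9 genes, the lists and the tests were chosen with earlier results of these data known. Each group had 1 list, so p-values between groups were not computed.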

Additional observations from a re-analysis of the deposited data

How the results depend on the processing

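Of 90 alternative values, 25 moved and 65 did not, where a count moved if it differed from the value reported by more than 1.5 times and a rank if it differed at all. The number of the 9 genes with a wild-type shared region at 60 min was 3 or 4 under the 11 alternatives tried, with Lonp1 added by MM alone and by either antibody. The SRF count was 0 under every alternative. Before heat shock the wild-type count went from 2 to 3, with Clpp added, by MM alone and by either antibody. It went to 0 at an FDR of at most 5% and to 0 when regions over an HSF1-/- peak of the same time were left out. At 12 min it went from 3 to 1 (Hspa9) at an FDR of at most 5%, and to 5 with MM alone or with either antibody. The HSF1-/- counts, 0 when both antibodies were required, were 4 with CS alone, 1 with MM alone and 5 with either before heat shock. They were 1, 2 and 2 at 12 min, and 2 with CS alone and 2 with either at 60 min. The rank of the Hspd1 and Hspe1 peak by fold was 22, 234 and 840 with CS and 10, 93 and 398 with MM, and by tags per base 2, 3 and 43 with CS and 3, 1 and 5 with MM. No paired analysis was possible because each group had 1 list. Each HSF1-/- list was shallower than the wild-type list of its time and antibody and called without a control, so absence of a region there is limited by depth.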

Other observations

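The following values were chosen after the data were seen. The run of 4 heat shock units occurred in the promoters of 6 protein-coding genes of the 17274 with an entry: Hspd1, Hspe1, Arpc2, Chordc1, Fam149a and Kctd18. A wild-type shared region lay within 1 kb of an end of 3 of them before heat shock (Hspd1, Hspe1 and Chordc1) and of 5 at 12 min and 60 min, all but Fam149a. Among genes without such a run the shares were 0.162%, 1.53% and 2.64% at the 3 times. Hspd1 and Hspe1 hold the same run and the same region, yet are counted as separate genes here. Of 104 genes with at least 3 units, 4.81%, 17.3% and 25.0% had such a region at the 3 times, against 0.151%, 1.47% and 2.53% of genes without. Hspd1 and Hspe1 are among these 104 genes, and among the 5 behind the 4.81%.

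The mouse gene table holds 13 copies named as pseudogenes or relatives of Hspe1 (7), Hspd1 (5) and Hspa9 (1). No peak of any of the 15 lists had its summit within 1 kb of any of them. Wild-type shared regions within the gene or 1 kb lay at 0.361%, 3.72% and 7.9% of protein-coding genes at the 3 times. For shared regions, 0 of 13 copies is near these shares. The share for all 15 lists at this distance was not computed, and whether reads could be placed at these copies was not tested.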
